A study of Homo sapiens with 36 samples.

Results

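SLFN11-knockout DU145 cells held in 250 nM camptothecin for 6 h were compared with untreated SLFN11-knockout DU145 cells. The comparison uses 6 of the series' 36 arrays, 3 per group, chosen by their titles. DU145 is a human prostate carcinoma line of epithelial origin, and the series also holds its SLFN11-proficient parent, each under no treatment and after 6 h and 12 h of camptothecin, besides a leukaemia line. Reference values come from untreated parent cells, parent cells in 250 nM camptothecin for 6 h and knockout cells in it for 12 h, with 3 arrays each. Both knockout groups, controls included, carry the SLFN11 disruption. The labels call the control untreated, although the treatment protocol names DMSO as the alternative to camptothecin, and they do not give its harvest time. They also do not say whether the knockout is 1 clone, so the loss of SLFN11 and the history of these cells cannot be told apart. Nothing says that the 3 arrays of a group came from separate cultures, and the p-values measure only the spread between them.

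Camptothecin traps topoisomerase I on DNA after it has cut 1 strand. The trapped enzyme stops an elongating RNA polymerase and turns into a double-strand break when a replication fork runs into it, which activates the ATR and CHK1 kinases. SLFN11 is a nuclear protein recruited to such stressed forks, where it blocks replication lastingly. Cells without it tolerate camptothecin better, and the series title names its link to immediate early genes. The 2 knockout groups therefore show which transcripts moved under the drug when SLFN11 was disrupted.

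All values are log2 signals, so a difference of 1 is a 2-fold change. The 18 DU145 arrays had medians of 4.80 to 4.86 and lower quartiles of 3.00 to 3.04, and arrays of 1 group correlated at r of 0.979 to 0.988 across genes. KRT18, a keratin of simple epithelia, stood at 11.92, 11.88 and 11.84 in the knockout controls and at 11.78, 11.77 and 11.82 after camptothecin. CD3E, a T-cell receptor subunit, stood at 6.48, 6.94 and 6.44 and at 6.51, 6.44 and 7.29, above the array medians, which are over all probe sets. In controls it lay below the level of the median gene, 7.15. Its level does not show absence. Markers of 4 kinds of cell were measured, 11 of epithelium, 12 of the T lineage, 10 of B and myeloid cells and 11 of stroma and vessels. Mean levels in knockout controls ran from 6.18 to 11.88 in the epithelial list and from 4.03 to 10.15 in the T-lineage list. They ran from 3.94 to 10.14 in the B and myeloid list and from 2.87 to 11.86 in the stroma and vessel list. The ranges overlap, so these levels do not separate the kinds of cell. Of all these markers 2 passed the test, CSF1R and CD79B of the B and myeloid list, both higher. The summed signal of that list was 11.1 to 11.6 in controls and 11.7 in each treated array on the log2 scale. The call of each marker was lost on leaving out any of 5 single arrays, and none of the listed markers is at 0 on this scale, which has no true zero.

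SLFN11 was examined first. Its brightest probe set stood at 8.72, 8.9997 and 9.18 in the knockout controls and at 9.18, 9.005 and 8.92 after 6 h, a change of 0.07 ± 0.17 (SE, n = 3 per group). In parent controls it stood at 8.35, 8.69 and 8.63, and its difference between the untreated genotypes, 0.41 ± 0.19 in the test of all probe sets, did not pass. None of its 11 probe sets passed at 6 h. Between untreated genotypes 5 probe sets passed, 3 lower and 2 higher in the knockout. The higher ones were 16843410, at 0.70 ± 0.15 (adjusted p = 0.028), and 16843412, at 2.14 ± 0.52 (adjusted p = 0.0482). The largest difference was at 16843409, which read 7.16, 7.72 and 7.96 in parent controls, 4.80, 3.93 and 5.58 in knockout controls and 5.003, 5.96 and 3.66 in treated knockout cells. The knockout arrays lay below every parent control at this probe set both before and after the drug. The choice of these probe sets followed from their values. They disagree in direction, so the array checks the genotype labels only in part, and the labels do not place the edit within SLFN11.

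Camptothecin changed 1940 of 22260 genes in the knockout cells, which is 8.72% of the genes tested (limma, Benjamini-Hochberg adjusted p below 0.05). Of these 1185 rose, 5.32% of all genes, and 755 fell, 3.39%. Changes of at least 2-fold were more often downward, with 94 genes higher (0.422%) and 149 lower (0.669%). The share of changed genes that were higher was 61.1%, against 34.2% with arrays shifted to equal medians of housekeeping genes and 48.9% after cyclic loess. The count was 1168 without replicate 1 of the treated arrays. With only the 6 arrays in the fit it was 410, of which 390 were among the 1940. The median change of all genes was 0.04, and lists are read against it and against these shares. Many lists had a higher median level than all genes, and bright genes pass more often, so these shares are a low standard for them. In 15.8% of all genes the 3 treated arrays lay above the 3 controls, and in 10.8% below them.

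Of the 149 genes that fell by at least 2-fold 113 spanned 100 kb or more and 9 were replication-dependent histone genes. Replication-dependent histone genes are short, single-exon genes switched on in S phase, when new DNA needs packaging, and their mRNAs are destroyed when replication stops. Of 68 listed, 30 were measured, and 12 of these fell while 2 rose. The median change was -0.26. Less mRNA per cell and fewer cells in S phase cannot be told apart in these bulk samples. The list is one on which histone paralogs with near-identical sequences may share probes, so a value for a single histone gene is uncertain.

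H2BC14, a core histone H2B gene, gave the largest fall of any named gene. Its arrays read 8.84, 9.04 and 8.86 in controls and 6.53, 6.24 and 6.36 after camptothecin, with no overlap. The change was -2.54 ± 0.12 (adjusted p = 2.61e-08), or 5.81-fold. H1-5, a linker histone gene, read 9.80, 10.07 and 10.17 and then 7.73, 8.36 and 7.64, a change of -2.10 ± 0.17 (adjusted p = 1.5e-05). Every one of its 3 probe sets fell, as did both of those of H2BC14.

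Of the other linker histone genes H1-2, H1-3 and H1-4 fell, and H1-1 and H1-6, at 0.11 and 0.20, did not pass. H1-4 stood at 11.26, 11.17 and 10.81 in controls and 9.51, 9.88 and 9.89 after the drug (-1.32 ± 0.15, adjusted p = 0.000175). H1-3 changed by -1.60 ± 0.30 and H1-2 by -0.91 ± 0.13. Among genes of histone H2A, a core histone, H2AC12 fell from 10.16, 10.06 and 10.11 to 8.88, 8.87 and 8.48 (-1.37 ± 0.14, adjusted p = 4.66e-05). H2AC6, H2AC21 and H2AC20 fell by 1.01, 0.90 and 0.87 on the log2 scale. Among H2B genes H2BC17 fell by 1.71, H2BC21 by 1.14 and H2BC5 by 1.01. Probe sets did not all agree. Of the 2 of H2AC12 1 passed as fallen and 1 was above 0. Of the 3 of H2BC17 1 passed as fallen and 1 was above 0. All 12 falls were called on leaving out any 1 of the 6 arrays compared. The only measured H3 and H4 genes, H3C4, H3C13 and H4C6, did not pass, at -0.02, 0.45 and -0.16.

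The 2 histone genes that rose had low signals. H2BC15 read 4.97, 5.15 and 4.76 in controls and 5.92, 6.20 and 5.87 after camptothecin (1.03 ± 0.24, adjusted p = 0.0145), and H2BC18 changed by 1.02 ± 0.27 (adjusted p = 0.0263). Leaving out single arrays ended the call of H2BC15 in 2 of 6 cases, with an adjusted p of 0.0265 to 0.0614, and that of H2BC18 in 5 of 6. Of 8 measured replication-independent histone genes, which are expressed outside S phase too, 1 passed and rose, MACROH2A2, by 0.46 ± 0.12, on a call lost in 4 of 6 such cases and with housekeeping medians made equal. Of 17 genes that make and process histone mRNA 5 rose, 1 fell and 11 did not pass. Only 3 rose without control replicate 2 or treated replicate 2, 3 with housekeeping medians made equal and 0 with only the 6 arrays compared, and with probe sets averaged 6 rose and 3 fell. SLBP, which binds the stem-loop at the end of histone mRNAs, rose from 9.74, 9.88 and 9.89 to 10.32, 10.54 and 10.58 (0.64 ± 0.10, adjusted p = 0.00158).

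Promoters of 4 histone genes are shown because these genes moved oppositely: H2BC14, H2BC21 and H1-4 fell and H2BC15 rose. Each sequence holds the 250 bases before the gene's start in RefSeq (build GRCh38.p14), on the gene's own strand. Capitals mark the CCAAT box, the TATA box (searched as TATAAA) and the octamer known from H2B promoters (searched as ATTTGCAT), on either strand. The regions are chr6:27814772-27815021 (plus strand) for H2BC14, chr1:149886683-149886932 (minus) for H2BC21, chr6:26156079-26156328 (plus) for H1-4 and chr6:27838319-27838568 (plus) for H2BC15.
H2BC14: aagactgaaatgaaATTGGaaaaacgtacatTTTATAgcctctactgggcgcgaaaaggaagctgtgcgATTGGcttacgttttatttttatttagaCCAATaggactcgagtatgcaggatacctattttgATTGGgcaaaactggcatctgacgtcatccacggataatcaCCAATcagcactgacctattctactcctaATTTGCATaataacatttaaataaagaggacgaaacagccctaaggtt
H2BC21: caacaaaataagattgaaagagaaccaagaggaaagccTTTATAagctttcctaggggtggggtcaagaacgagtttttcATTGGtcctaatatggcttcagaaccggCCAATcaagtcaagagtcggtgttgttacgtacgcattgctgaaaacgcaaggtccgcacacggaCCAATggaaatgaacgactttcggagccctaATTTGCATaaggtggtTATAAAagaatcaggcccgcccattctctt
H1-4: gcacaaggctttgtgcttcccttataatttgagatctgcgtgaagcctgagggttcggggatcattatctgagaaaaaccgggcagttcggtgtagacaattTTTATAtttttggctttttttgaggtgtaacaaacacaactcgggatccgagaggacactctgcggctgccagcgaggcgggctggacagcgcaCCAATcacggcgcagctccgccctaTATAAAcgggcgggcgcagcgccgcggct
H2BC15: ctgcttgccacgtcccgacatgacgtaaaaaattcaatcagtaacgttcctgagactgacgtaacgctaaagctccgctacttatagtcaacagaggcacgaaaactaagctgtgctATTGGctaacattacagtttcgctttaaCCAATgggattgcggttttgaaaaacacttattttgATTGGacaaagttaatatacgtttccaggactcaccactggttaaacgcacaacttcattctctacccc

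Both strands were searched, and matches of different motifs may overlap. TATAAA was in 9 of the 11 fallen histone promoters that the RefSeq table holds and in 18 of the 29 measured ones, against 11.1% of all 27305 promoters of this length. CCAAT was in 29 of 29, against 33.0%. ATTTGCAT was in 9 of the 13 measured H2B promoters, against 1.66% of all. Among histone promoters ATTTGCAT was in 6 of the 11 fallen and 16 of the 29 measured ones, shares of 54.5% and 55.2%. H2BC15, which rose, has CCAAT matches but neither TATAAA nor ATTTGCAT in this window. It is the only risen promoter shown, and a link between motif and direction was not tested. A match to these letters is a description of the sequence and not a binding site.

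Genes of the G1/S transition encode the cyclins, their kinases and the E2F factors that open S phase. Of 14 measured, 10 rose, 0 fell and 4 did not pass (limma, 10 rose on leaving out any single array too), with a median change of 0.66. CCNE1, which encodes cyclin E1, the partner of CDK2, stood at 7.35, 7.50 and 7.99 in controls and 8.92, 8.61 and 8.67 after camptothecin (1.12 ± 0.20, adjusted p = 0.00278). CCNE2, its paralog, stood at 9.13, 9.49 and 9.65 and at 10.40, 10.57 and 10.48 (1.06 ± 0.13, adjusted p = 0.000291). In both the groups did not overlap.

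The E2F family split. E2F2, an activator, read 6.75, 7.04 and 6.72 in controls and 7.85, 8.13 and 7.97 after 6 h (1.15 ± 0.20, adjusted p = 0.00239). E2F7 and E2F8, which repress E2F targets, rose by 1.02 ± 0.14 and 0.71 ± 0.13. E2F1 and E2F3, at -0.02 and -0.01, did not pass. The D-type cyclin genes CCND3 and CCND1 rose by 0.85 and 0.47, the kinase gene CDK2 by 0.65 and the phosphatase gene CDC25A by 0.67. CCNE2, E2F8 and CCND3 already stood lower in untreated knockout than in untreated parent cells, at -0.53, -0.66 and -0.45. CCNE1, E2F2 and E2F7 did not pass there, at -0.53, -0.10 and 0.17. After 6 h CCNE2 and E2F8 averaged 10.48 and 10.00 in knockout cells, against 9.95 and 9.95 in untreated parent cells.

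Origin licensing genes, which load the replicative helicase before S phase, rose in 11 of 24 cases and fell in 0 (limma), with a median change of 0.35. ORC1, a subunit of the origin recognition complex, read 8.56, 8.68 and 9.07 and then 9.77, 9.80 and 9.46 (0.91 ± 0.15, adjusted p = 0.0023). The loading factors CDT1 and CDC6 rose by 0.90 ± 0.13 and 0.81 ± 0.10. MCM10 rose by 0.71, MCM2 by 0.59 and MCM5 by 0.55. Untreated knockout cells already stood below untreated parent cells for ORC1 (-0.77), CDT1 (-0.47), CDC6 (-0.40), MCM10 (-0.67) and MCM2 (-0.41). GINS4, which also rose, did not pass there (-0.22). After 6 h ORC1 and MCM10 averaged 9.68 and 10.96 in knockout cells, against 9.55 and 10.92 in untreated parent cells. CDT1 and CDC6 averaged 10.05 and 11.36, against 9.62 and 10.95. With housekeeping medians made equal 5 licensing genes rose, and with only the 6 arrays compared 3 licensing and 5 G1/S genes did. Of 31 genes of the fork and of nucleotide supply 5 rose and 2 fell. FEN1, the flap nuclease of lagging-strand synthesis, read 9.08, 9.20 and 9.27 and then 10.05, 10.14 and 10.10 (0.92 ± 0.09, adjusted p = 5.66e-05). PRIM2, the large primase subunit, fell from 9.17, 9.69 and 9.83 to 8.35, 8.24 and 8.39 (-1.24 ± 0.15, adjusted p = 0.000278). PRIM2 spans 425 kb, and POLA1, the polymerase alpha subunit that also fell (-0.56 ± 0.15), spans 303 kb. The call of POLA1 was lost in 5 of 6 cases of leaving out 1 array.

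**Figure D1:**
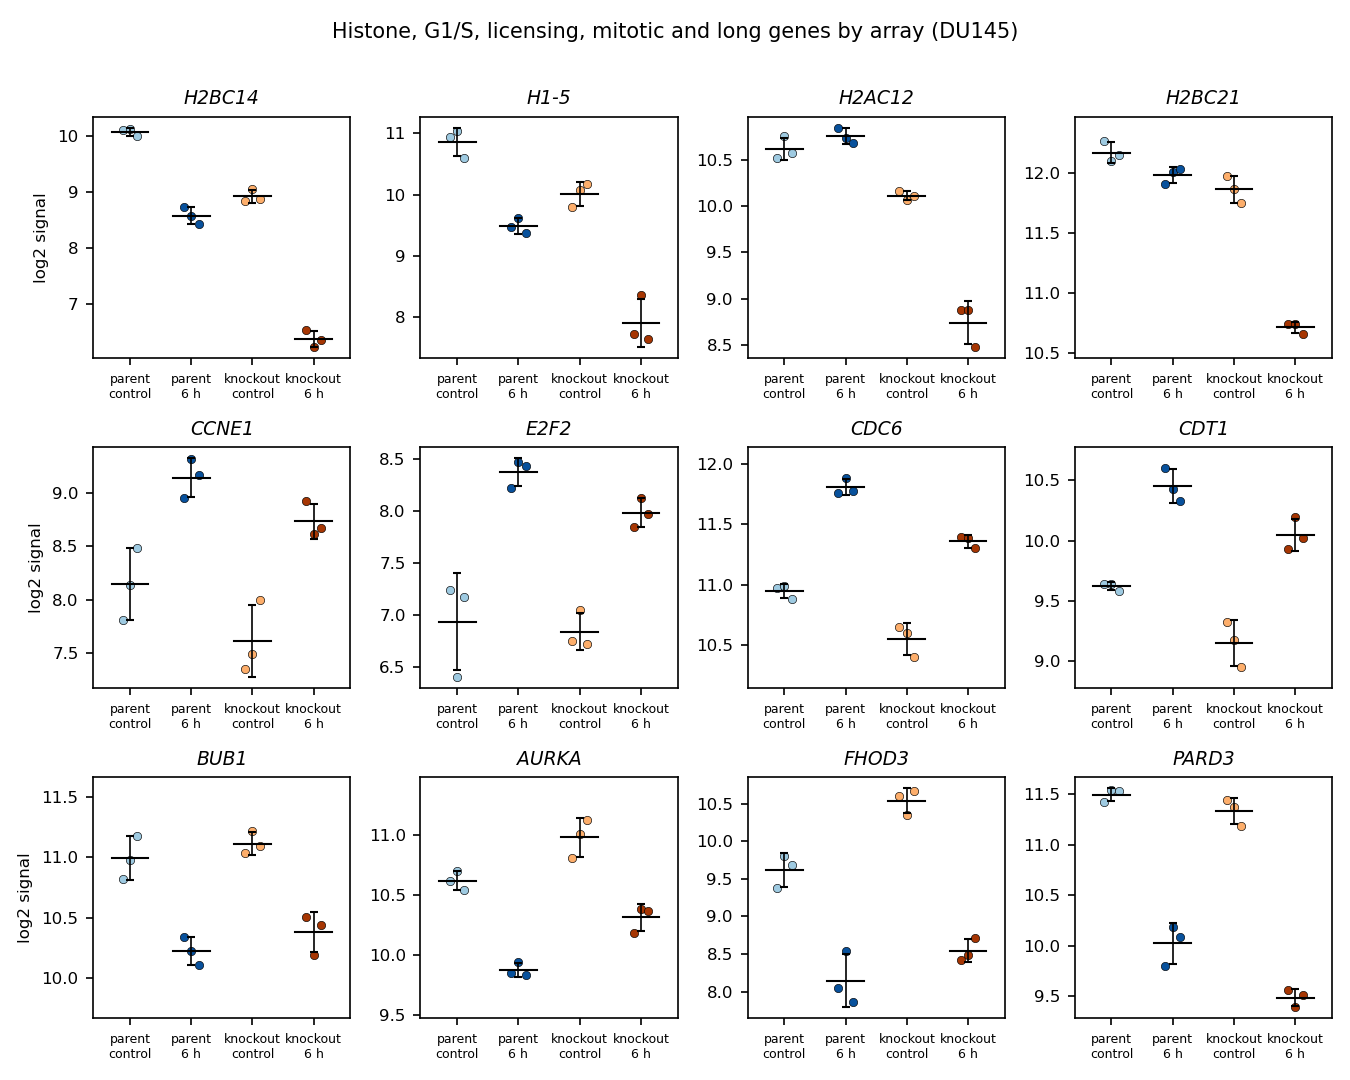
Log2 signal by array of 4 histone, 2 G1/S, 2 licensing, 2 mitotic and 2 long genes in untreated and 6 h camptothecin cells of both genotypes; points are arrays, lines the group mean and SD (n = 3). In knockout cells the histone, mitotic and long genes are lower and the G1/S and licensing genes higher after the drug, and H2BC14 drops from 8.84 to 9.04 in controls to 6.24 to 6.53.

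Of 30 genes of mitotic entry and exit 13 fell, 1 rose and 16 did not pass, with a median change of -0.39. UBE2C, the ubiquitin-conjugating enzyme of the anaphase-promoting complex, read 10.79, 10.50 and 10.31 in controls and 9.51, 9.48 and 9.42 after camptothecin (-1.07 ± 0.13, adjusted p = 0.000296). BUB1, a spindle checkpoint kinase, read 11.03, 11.22 and 11.09 and then 10.51, 10.19 and 10.44 (-0.74 ± 0.11, adjusted p = 0.00126). Neither gene's groups overlapped. AURKA, CCNB1 and AURKB, which encode the Aurora A kinase, cyclin B1 and the Aurora B kinase, fell by 0.66, 0.56 and 0.45. PLK1, the polo-like kinase, read 12.56, 12.63 and 12.59 and then 12.23, 12.16 and 12.15 (-0.42 ± 0.12, adjusted p = 0.0363). The 1 gene that rose, PKMYT1, encodes a kinase that holds CDK1 inactive (0.77 ± 0.22, adjusted p = 0.0382). Before the drug UBE2C (0.47), AURKA (0.36) and CCNB1 (0.80) stood higher in knockout than in parent cells, and PKMYT1 lower (-1.30). BUB1 did not pass there (0.12). After 6 h CCNB1 averaged 11.01 in knockout cells, against 10.77 in untreated parent cells. UBE2C, AURKA and PKMYT1 averaged 9.47, 10.31 and 7.66, against 10.07, 10.62 and 8.19.

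Of 27 genes of spindle motors and cytokinesis 8 fell, 0 rose and 19 did not pass (limma), with a median change of -0.25. KIF18A, a kinesin that dampens chromosome movement, read 10.27, 9.99 and 10.35 and then 9.42, 9.37 and 9.46 (-0.79 ± 0.13, adjusted p = 0.00213). HMMR, a spindle-associated hyaluronan receptor, fell by 0.60 and the microtubule polymerase gene CKAP5 by 0.64. Before the drug HMMR stood higher in knockout than in parent cells (0.62), and KIF18A (-0.10) and CKAP5 (0.002) did not pass. After 6 h HMMR averaged 11.18 in knockout cells, against 11.15 in untreated parent cells. The mitotic and spindle counts rested on single arrays more than those of the histones. Without replicate 1 of the treated arrays 7 mitotic and 4 spindle genes fell, and without control replicate 2 or 3, 5 spindle genes did. With only the 6 arrays compared 1 gene of each list fell. The calls of PLK1 and PKMYT1 were lost on leaving out single arrays in 6 and 4 of 6 cases.

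Promoters of 3 of the fallen mitotic and spindle genes are shown, because all 3 hold both the CCAAT box and the cell-cycle homology region (searched as TTTGAA or TTCGAA). They are drawn as before, from chr16:23678639-23678888 (plus strand) for PLK1, chr15:59104896-59105145 (plus) for CCNB2 and chr5:163460382-163460631 (plus) for HMMR, and capitals mark both of these motifs on either strand.
PLK1: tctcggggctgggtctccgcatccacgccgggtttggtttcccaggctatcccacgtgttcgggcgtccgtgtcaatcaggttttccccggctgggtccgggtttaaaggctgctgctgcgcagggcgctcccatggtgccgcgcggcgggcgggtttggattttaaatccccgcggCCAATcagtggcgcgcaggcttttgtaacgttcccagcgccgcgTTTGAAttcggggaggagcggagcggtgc
CCNB2: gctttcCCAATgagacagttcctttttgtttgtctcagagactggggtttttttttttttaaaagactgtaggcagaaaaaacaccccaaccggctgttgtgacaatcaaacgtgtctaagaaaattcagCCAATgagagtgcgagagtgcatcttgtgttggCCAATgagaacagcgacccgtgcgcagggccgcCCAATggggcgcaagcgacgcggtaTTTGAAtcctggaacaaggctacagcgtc
HMMR: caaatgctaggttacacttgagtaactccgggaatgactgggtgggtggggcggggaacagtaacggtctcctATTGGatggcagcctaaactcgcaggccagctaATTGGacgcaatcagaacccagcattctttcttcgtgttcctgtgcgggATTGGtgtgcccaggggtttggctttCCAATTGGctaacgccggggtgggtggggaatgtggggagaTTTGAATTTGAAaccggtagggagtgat

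The cell-cycle letters were in 10 of 18 promoters of the fallen mitotic and spindle genes and in 24 of 47 of the measured ones, against 14.6% of all promoters. CCAAT was in 15 of 18 and 35 of 47, against 33.0%. The share in the fallen genes was near that in all measured members of these lists.

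Most fallen genes were long. Long genes are known to lose mRNA under topoisomerase I inhibitors. Gene length here is the span from start to end in RefSeq. Fallen genes had a median span of 145 kb, risen genes of 14.7 kb and all genes of 19.97 kb. Of the 751 fallen genes with a span 477, or 63.5%, spanned 100 kb or more, against 15.01% of all genes and 2.37% of the risen ones.

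The share that fell was higher in each span class from 30 kb upward. It was 0.950% under 10 kb, 0.867% from 10 to 30 kb, 2.75% from 30 to 100 kb, 13.3% from 100 to 300 kb and 17.8% above. The share that rose was 5.39%, 8.55%, 4.65%, 1.02% and 0.259% in the same order. Dim genes seldom pass the test, so the shares were also taken over genes with a DU145 mean of at least 8. There 38.8% of the 281 genes above 300 kb fell and 22.3% of those of 100 to 300 kb, against 2.61% under 10 kb. This split was added after seeing the data.

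**Figure D2:**
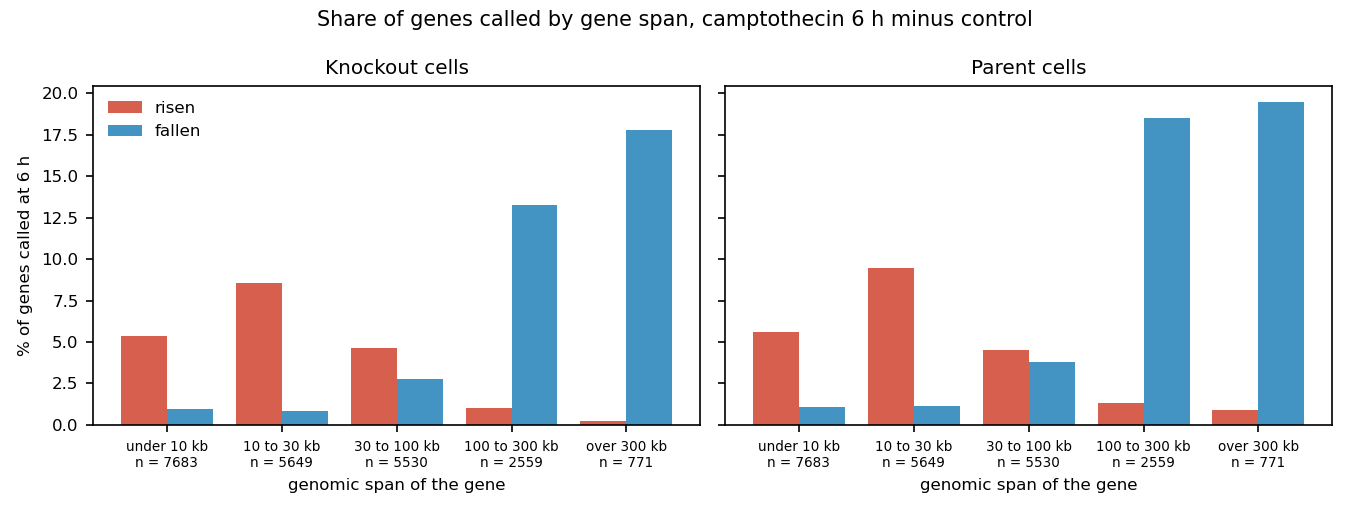
Percent of genes that rose (red) and fell (blue) after 6 h of camptothecin by gene span in kb, in knockout cells (left) and parent cells (right). In knockout cells the fallen share is 0.950% under 10 kb and 17.8% above 300 kb, and the risen share 5.39% and 0.259%.

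A list of common fragile site genes and other very long genes held 56 measured members, of which 22 fell and 0 rose (limma), with a median change of -0.57. Leaving out 1 array left 17 to 20 fallen, and with all probe sets of a gene averaged 33 fell. PARD3, a cell polarity scaffold spanning 706 kb, read 11.44, 11.38 and 11.19 in controls and 9.56, 9.39 and 9.51 after camptothecin (-1.85 ± 0.13, adjusted p = 4.13e-06), and 18 of its 27 probe sets fell. CDKAL1, a tRNA-modifying enzyme spanning 698 kb, read 9.84, 10.25 and 10.08 and then 8.70, 8.46 and 8.48 (-1.51 ± 0.16, adjusted p = 0.000101). The groups of both genes were far apart. ARID1B, a subunit of the BAF chromatin remodeler, changed by -1.61 ± 0.25, EXT1, a heparan sulfate polymerase, by -1.20 ± 0.12 and GPHN, the synaptic scaffold gephyrin, by -1.05 ± 0.16.

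Not every long gene passed as fallen, which does not show that the others were unchanged. WWOX, FHIT and CNTNAP2, which lie at common fragile sites, did not pass, at 0.31, -0.20 and 0.07. FHOD3, a formin that builds actin fibres and spans 483 kb, read 10.60, 10.36 and 10.67 and then 8.42, 8.49 and 8.72 (-1.998 ± 0.19, adjusted p = 3.14e-05), with 21 of 23 probe sets lower. ROR1, a receptor tyrosine kinase of Wnt5a, changed by -1.78 ± 0.22, RIMS2, a synaptic vesicle protein, by -2.35 ± 0.32, SBF2 by -1.79 ± 0.38 and ZNF407 by -1.79 ± 0.34. CEMIP, which binds and degrades hyaluronan, read 9.28, 8.53 and 8.62 and then 6.85, 6.31 and 6.85 (-2.14 ± 0.26, adjusted p = 0.000262). TMEM135 read 9.08, 9.01 and 9.27 and then 7.19, 7.54 and 7.34 (-1.76 ± 0.18).

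The calls of 2 other genes among the 12 largest falls, APBB1IP (-1.9998 ± 0.53, adjusted p = 0.0293) and FOXB1 (-1.86 ± 0.49, adjusted p = 0.0279), were lost on leaving out single arrays in 5 and 4 of 6 cases. Neither had a probe set that passed in the test of all 352859 probe sets. In that test 3202 rose, 0.907%, and 6125 fell, 1.74%, so more probe sets fell than rose although more genes rose.

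The largest rises were mostly carried by 1 probe set each. ZNF726, a zinc finger gene, read 3.54, 3.50 and 3.83 in controls, near the arrays' lower quartile, and 6.43, 5.84 and 5.81 after camptothecin (2.40 ± 0.21, adjusted p = 1.83e-05), on 1 of 4 probe sets. EOMES, a T-box transcription factor, read 3.39, 3.50 and 3.04 and then 5.51, 4.99 and 5.77 (2.11 ± 0.39, adjusted p = 0.00362), on 1 of 12. In both genes the controls were near the floor of the arrays, so the size of the change is uncertain. MYB, a transcription factor of progenitor cells, read 5.73, 5.80 and 6.67 and then 7.89, 7.75 and 7.88 (1.77 ± 0.23, adjusted p = 0.000323), and 3 of its 27 probe sets rose. TLR3, a receptor for double-stranded RNA, changed by 1.502 ± 0.28, RAB5IF by 1.68 ± 0.29, ZNF425 by 1.68 ± 0.38 and ZNF606 by 1.56 ± 0.31. ESR2, which encodes estrogen receptor beta, changed by 2.02 ± 0.45 (adjusted p = 0.0121, 0.0144 to 0.0579 on leaving out single arrays). GTF2H2, of the repair and transcription factor TFIIH, changed by 1.67 ± 0.45, and KHDC1 by 1.42 ± 0.36, with calls lost in 5 and 4 of 6 cases.

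Of 23 genes of the ATR-CHK1 checkpoint 3 rose and 1 fell, with a median change of 0.11. The risen ones are the subunits of the 9-1-1 clamp, which loads at damaged forks. RAD9A rose from 7.10, 7.25 and 6.75 to 8.40, 8.14 and 8.34 (1.26 ± 0.15, adjusted p = 0.000203), RAD1 rose by 0.48 and HUS1 by 0.38, the last on a call lost in 5 of 6 cases. Untreated knockout cells already stood below untreated parent cells for RAD9A (-1.21 ± 0.15) and RAD1 (-0.44 ± 0.09), and HUS1 did not pass there (0.15). After 6 h RAD9A averaged 8.30 in knockout cells, against 8.24 in untreated parent cells. CHEK1, the checkpoint kinase itself, did not pass, at -0.08 ± 0.11.

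Of 33 homologous recombination and Fanconi genes 6 rose (18.2%) and 1 fell (3.03%), with a median change of 0.18. With housekeeping medians made equal 4 rose, and 2 did with only the 6 arrays compared. XRCC3, a recombination gene, read 8.36, 8.42 and 8.12 and then 9.22, 9.29 and 9.08 (0.90 ± 0.12, adjusted p = 0.000559). EXO1, which resects broken ends, rose by 0.82 ± 0.12. In untreated knockout cells EXO1 already stood below untreated parent cells, at -0.67 ± 0.12, and XRCC3 did not pass there (-0.32). Of 18 genes that repair topoisomerase I lesions 1 passed, XRCC1, the scaffold of single-strand break repair, at 10.24, 10.07 and 10.11 against 9.53, 9.54 and 9.48 (0.62 ± 0.10). TOP1, the drug's target, and TDP1, which cleaves the trapped enzyme from DNA, did not pass, at -0.07 ± 0.10 and -0.31 ± 0.17.

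The remaining lists had few changed members. Rises and falls numbered 3 and 0 of 32 interferon-stimulated genes, 1 and 3 of 25 chromatin remodelers, 2 and 2 of 18 splicing regulators, 3 and 1 of 21 elongation factors, 4 and 0 of 19 sterol synthesis genes, 3 and 0 of 35 ribosomal protein genes, 0 and 0 of 15 BCL2 family genes and 0 and 1 of 13 housekeeping genes (limma). Leaving out single arrays moved some of the risen counts, to 1 sterol synthesis gene without any one treated array and 2 without control replicate 1 or 3, to 1 elongation factor without treated replicate 1 and to 1 splicing regulator without any one array. Chromatin remodelers that rose numbered 0 to 2, and the fallen housekeeping genes 0 to 2. These counts, at most 4 members in a direction, are read against 5.32% and 3.39% of all genes. Median control levels of these lists were 7.44 to 11.94, against 7.15 for all genes, and dim genes seldom pass. In genes with a DU145 mean of at least 8 the risen share was 18.9% under 10 kb and 6.32% from 30 to 100 kb. The fallen shares there were 2.61% and 4.27%. At 100 to 300 kb 1.17% rose and 22.3% fell. A share above that of all genes is therefore not read as particular to a list. Of the 6 Schlafen genes 2 rose. SLFN5 read 8.11, 8.39 and 8.61 and then 9.11, 9.06 and 9.10 (0.72 ± 0.15), and SLFN13, a tRNA-cleaving relative of SLFN11, rose by 0.66 ± 0.12.

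**Figure D3:**
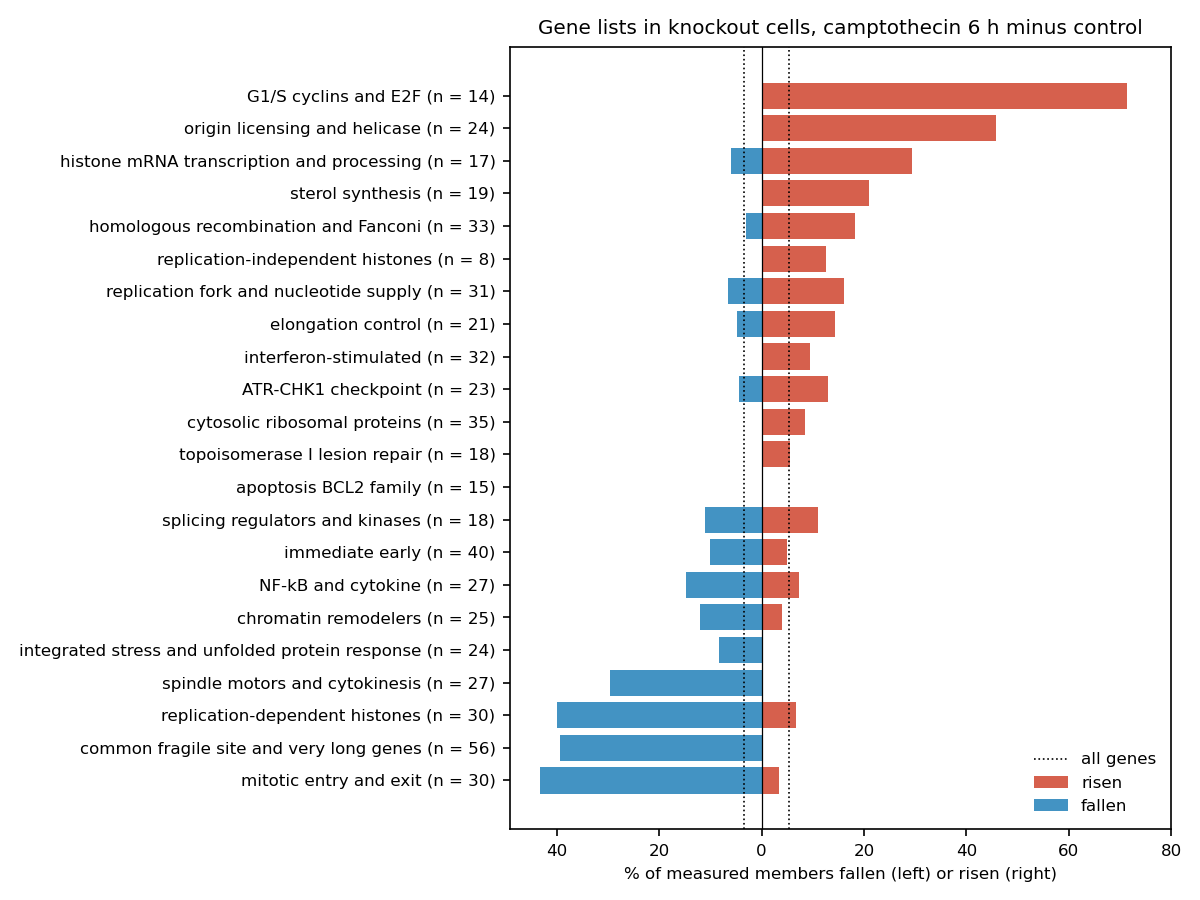
Percent of the measured members of the functional gene lists that fell (left, blue) and rose (right, red) in knockout cells after 6 h; dotted lines give the shares of all genes, 3.39% and 5.32%. The G1/S list is highest on the risen side with 10 of 14, and histones with 12 of 30, mitotic genes with 13 of 30 and very long genes with 22 of 56 lead the fallen side.

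The parent cells show which of these changes also occurred with SLFN11 present. They share no arrays with the knockout comparison but share its estimate of spread. In parent cells 2247 genes changed at 6 h, or 10.1% (5.67% higher and 4.42% lower). Of the 1940 genes changed in the knockout 1648 had the same sign in the parent and 777 were called in the same direction there. Over all genes the changes of the genotypes correlated at r = 0.313, and over the 3330 genes spanning 100 kb or more at r = 0.466, where genes are not independent and controls of a genotype are shared by all of them. A call in one genotype and none in the other is not a difference, so the difference itself was tested, taking the knockout change from the parent change. This genotype difference passed for 248 genes, 1.11%, of which 174 were above 0 (0.782%) and 74 below (0.332%). The number below was the less stable, at 23 without treated knockout replicate 1, 9 at an adjusted p below 0.01, 184 with a variance trend and 222 in a fit of all 36 arrays.

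**Figure D4:**
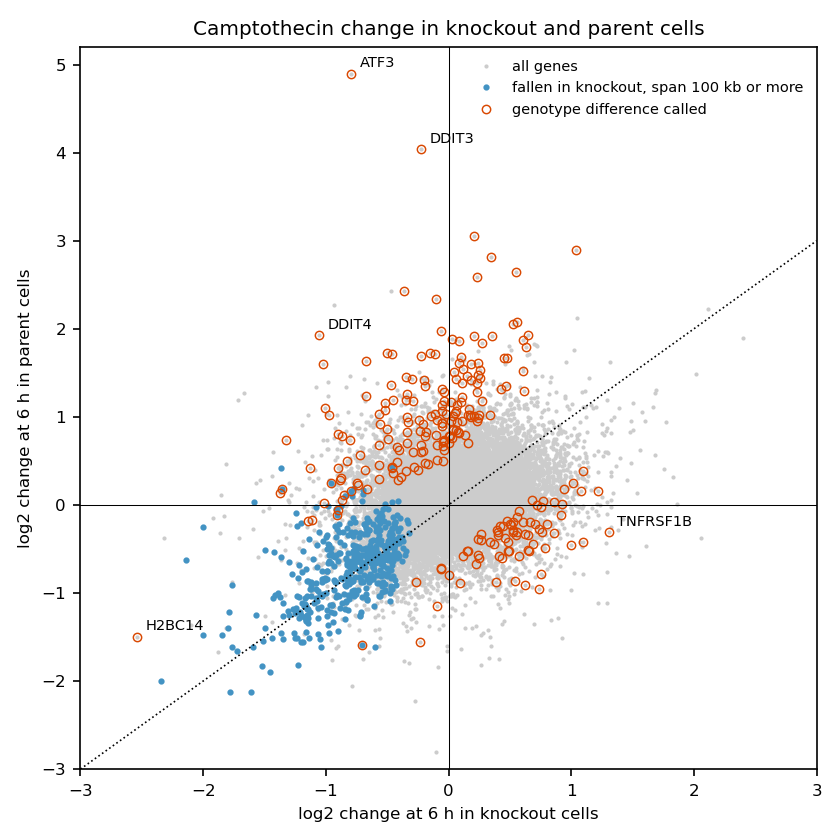
Log2 change after 6 h of camptothecin in knockout cells (x axis) against that in parent cells (y axis), 1 point per gene, with fallen genes of 100 kb or more in blue, genes with a genotype difference ringed and equal change dotted. ATF3 lies at -0.79 and 4.90 and DDIT3 at -0.23 and 4.04, far above the line. The fallen long genes, chosen by their knockout change, lie at varied distances from it. PARD3 is at -1.85 and -1.47, ROR1 at -1.78 and -2.13 and CEMIP at -2.14 and -0.62.

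In parent cells 12 mitotic, 11 spindle and 23 very long genes fell and 7 G1/S and 11 licensing genes rose. The mitotic, spindle and very long lists had 0 members with a genotype difference in limma, which in lists of 27 to 56 members is near the 1.11% of all genes. Of G1/S genes 1 was above 0 and 1 below, and of licensing genes 1 was above. SKP2, the substrate receptor that targets CDK inhibitors for degradation, was the one below. It rose by 0.56 ± 0.10 in knockout cells and stood at -0.31 ± 0.10 in parent cells, a difference of -0.87 ± 0.14 (adjusted p = 0.00551). FBXO5, an inhibitor of the anaphase-promoting complex, differed by 0.82 ± 0.15 and the helicase subunit gene MCM7 by 0.64 ± 0.14 (adjusted p = 0.0131 and 0.0446). The call of MCM7 was lost on leaving out 11 of 12 single arrays and that of FBXO5 on none.

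Histone genes did differ, with 8 of 30 above 0 and 0 below. In parent cells 6 of the 30 rose and 2 fell. H2AC12 in parent cells read 10.52, 10.76 and 10.58 in controls and 10.85, 10.74 and 10.68 after the drug, a change of 0.14 ± 0.14 against -1.37 ± 0.14 in knockout cells. The difference was 1.51 ± 0.19 (adjusted p = 0.000788). It rests on the brightest of 2 probe sets of H2AC12, of which 1 was above 0 in knockout cells. H2BC21 differed by 0.96 ± 0.14 and H2AC6 by 1.04 ± 0.14, both with parent changes that did not pass, at -0.19 and 0.02. H2BC14 fell by 2.54 in knockout cells and fell by 1.496 in parent cells, and differed by 1.04 ± 0.16 (adjusted p = 0.00467). H2BC15 rose by 1.03 in knockout cells and by 2.90 in parent cells, and differed by 1.86 ± 0.34. The untreated genotypes differed as well. Untreated knockout cells stood lower for H2BC14 (-1.15), H2AC12 (-0.51), H1-5 (-0.84) and H1-4 (-0.82) and higher for H1-3 (1.06), and H2BC17 did not pass (0.05).

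Stress-response genes differed most. Immediate early genes encode transcription factors and regulators that a stimulus switches on without waiting for other proteins. In knockout cells 2 of 40 rose and 4 fell, while in parent cells 24 rose, and the genotype difference was above 0 for 18. ATF3, a stress factor of the ATF family, read 5.07, 5.83 and 6.30 in knockout controls and 5.21, 4.98 and 4.64 after camptothecin (-0.79 ± 0.31, adjusted p = 0.143). In parent cells it read 4.66, 5.34 and 5.25 and then 10.11, 9.96 and 9.86. The 2 knockout groups overlapped and the 2 parent groups did not. JUN, the core AP-1 subunit, read 8.96, 8.87 and 8.84 and then 8.93, 9.01 and 8.82 in knockout cells (0.03 ± 0.12, adjusted p = 0.93). JUNB, another AP-1 subunit, was 1 of the 2 that rose, from 9.74, 9.60 and 9.42 to 10.30, 10.07 and 10.29 (0.63 ± 0.13, adjusted p = 0.00614), and the other was IER5 (0.50 ± 0.13, adjusted p = 0.0279), on a call lost in 5 of 6 cases of leaving out 1 array.

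Some of these genes fell in knockout cells and rose in parent cells. KLF6, a Kruppel-like transcription factor, read 11.47, 11.29 and 11.30 and then 10.41, 10.36 and 10.29 in knockout cells (-1.004 ± 0.10, adjusted p = 4.07e-05), and 10.48, 10.55 and 10.53 and then 11.60, 11.63 and 11.64 in parent cells. DUSP1, a MAP kinase phosphatase, read 10.91, 10.88 and 10.81 and then 10.39, 10.34 and 10.31 in knockout cells (-0.52 ± 0.09, adjusted p = 0.00249). In parent cells DUSP1 read 10.53, 10.49 and 10.36 and then 11.60, 11.58 and 11.44. For both genes the untreated knockout arrays lay above the untreated parent arrays, so the genotypes differed before the drug as well. CCN1, a matricellular protein gene, fell by 0.83 and ZFP36L1, which destabilises AU-rich mRNAs, by 0.57 in knockout cells, the latter reversed when all probe sets of the gene were averaged. Before the drug these genes too stood higher in knockout than in parent cells, CCN1 at 0.78 and ZFP36L1 at 0.54.

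NF-kB and cytokine genes gave like counts. Of 27, 2 rose and 4 fell in knockout cells, 16 rose in parent cells, and the genotype difference was above 0 for 8. CXCL8, a neutrophil chemokine, read 9.54, 9.52 and 9.45 and then 9.08, 8.75 and 8.66 in knockout cells (-0.67 ± 0.13, adjusted p = 0.00422), against 8.45, 8.24 and 8.33 and then 9.95, 10.00 and 9.98 in parent cells. BIRC3, an inhibitor of apoptosis, read 10.16, 10.34 and 10.35 and then 9.51, 9.84 and 9.48 (-0.67 ± 0.13, adjusted p = 0.00422). NFKB1, the p50 precursor, fell by 0.58 and the inhibitor gene NFKBIA by 0.45, on a call that was lost on leaving out any one array and reversed with probe sets averaged. RELA and REL, the transactivating subunits, rose by 0.46 and 0.52, on calls lost in 1 and 5 of 6 such cases. Before the drug BIRC3 (1.53), CXCL8 (1.16) and NFKBIA (0.77) stood higher in knockout than in parent cells. NFKB1 (0.15), RELA (-0.30) and REL (-0.37) did not pass there. After 6 h BIRC3 and CXCL8 averaged 9.61 and 8.83 in knockout cells, against 8.75 and 8.34 in untreated parent cells.

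The integrated stress and unfolded protein responses halt general translation and raise repair genes. Of 24 members 0 rose and 2 fell in knockout cells (limma), with a median change of 0.06 that was -0.03 with housekeeping medians made equal. In parent cells 15 rose, and 11 had a genotype difference above 0. DDIT3, which encodes CHOP, read 6.16, 6.51 and 6.59 and then 5.92, 6.64 and 6.02 in knockout cells, with overlapping groups (-0.23 ± 0.31, adjusted p = 0.762). DDIT4, an mTORC1 inhibitor, fell from 8.72, 8.11 and 8.37 to 7.15, 7.55 and 7.34 (-1.05 ± 0.21, adjusted p = 0.00603), while in parent cells it read 7.72, 8.20 and 8.12 and then 9.77, 10.03 and 10.02. ATF6, a sensor of endoplasmic reticulum stress spanning 198 kb, fell in both genotypes, by 0.68 and 0.66. Before the drug DDIT3 stood higher in knockout than in parent cells (1.08), and DDIT4 (0.39) and ATF6 (-0.07) did not pass.

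Of the 74 genes below 0 in the genotype difference, 51 rose in knockout cells and 1 fell, with median changes of 0.54 in knockout and -0.35 in parent cells. Of the 174 above 0, 9 rose and 43 fell in knockout cells, with medians of -0.10 and 1.00. These counts only describe the genes called, since both changes enter the difference. TNFRSF1B, a receptor for tumour necrosis factor, read 5.36, 5.70 and 4.71 and then 6.62, 6.95 and 6.12 in knockout cells (1.31 ± 0.23, adjusted p = 0.00255). In parent cells it read 7.05, 6.88 and 6.73 and then 6.51, 6.44 and 6.79, and the untreated genotypes stood apart. FAXC read 5.42, 6.34 and 6.49 and then 7.28, 7.18 and 7.09 in knockout cells (1.10 ± 0.23, adjusted p = 0.0077). Leaving out 1 of the 12 arrays of the genotype difference ended its call in 6 cases for TNFRSF1B and in 7 for FAXC.

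**Figure D5:**
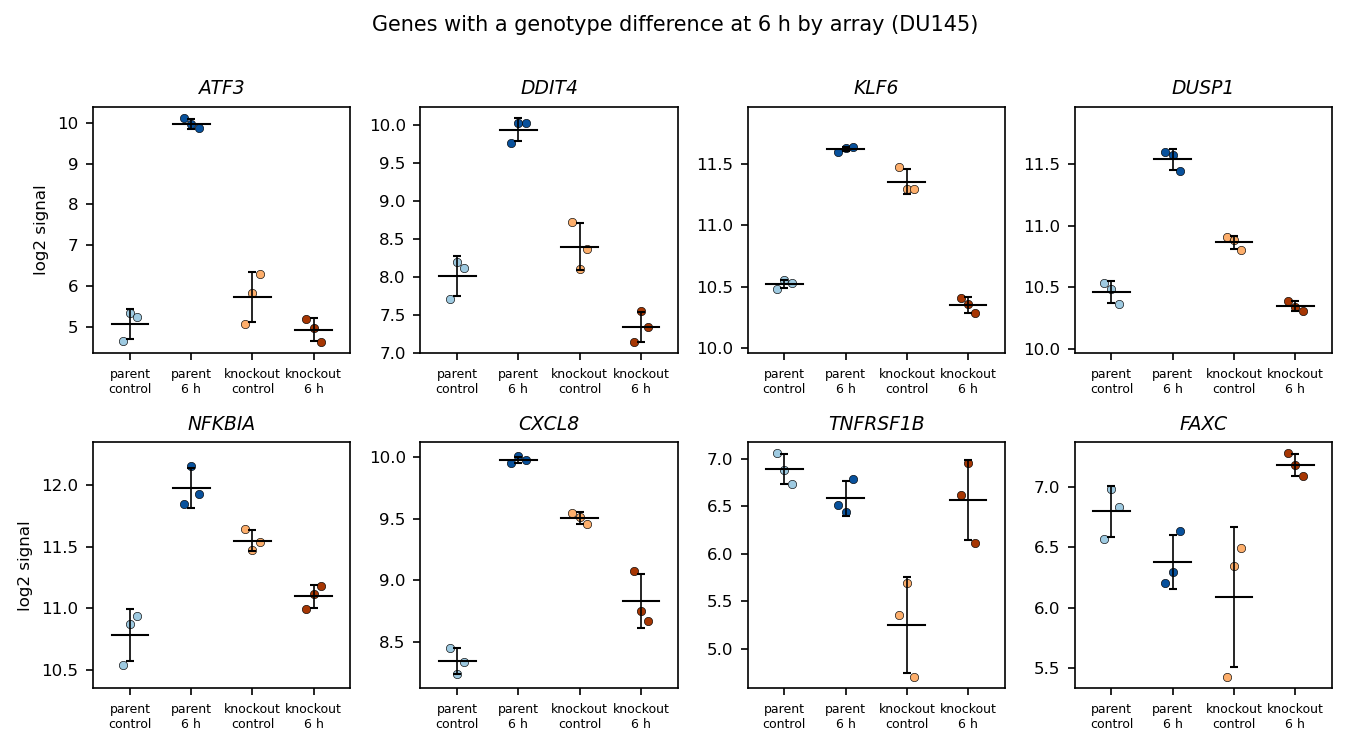
Log2 signal by array of 8 genes with a genotype difference, with group mean and SD (n = 3). At the brightest probe set plotted, ATF3, DDIT4, KLF6, DUSP1, NFKBIA and CXCL8 climb in parent cells and not in knockout cells. TNFRSF1B and FAXC are higher after camptothecin in knockout cells. For NFKBIA 14 of 16 probe sets were above 0 in knockout cells, and their average changed by 0.32.

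At 12 h, measured against the same control arrays as 6 h, 2232 genes were changed in knockout cells, or 10% (6.31% higher and 3.72% lower). Of the lists above, 9 G1/S and 15 licensing genes were higher and 14 mitotic, 9 spindle, 13 histone and 25 very long genes lower. Fork and nucleotide supply genes were higher in 18 of 31 cases, against 5 at 6 h, a difference that was not tested. The count at 6 h was 17 with probe sets averaged and 3 without control replicate 2 or treated replicate 2 or 3. CCNE1 stood at 1.12 at 6 h and 1.93 at 12 h, H2BC14 at -2.54 and -1.40, LPP, a focal adhesion gene spanning 738 kb, at -0.76 and -2.29, and CXCL8 at -0.67 and 0.20.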

How the data were processed

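Total RNA was extracted, amplified and hybridised as 1-colour arrays. The authors deposited log2 probe-set signals made by RMA in Partek, per the submitters' processing notes, and these were used as deposited; versions and the genome build are not given in the sources used here. Each of 22260 genes was represented by its brightest probe set with exactly 1 symbol, so the number of arrays limits precision. limma 3.58.1 (lmFit, eBayes without trend, R 4.3.3) was fitted to all 18 DU145 arrays in 6 groups with 12 residual degrees of freedom, with p adjusted by Benjamini-Hochberg over all genes. It was tested on simulated data. SE is moderated. Named genes were the 12 largest changes per direction and the 6 largest genotype differences per direction, with treated arrays all on 1 side and a higher group mean of at least 5, and up to 6 changed members per list, besides list members given as examples. The members, the 29 lists, the rules and the tests were chosen with earlier results of these data known. 1 list is not reported here. Replicate numbers did not pair the arrays. Alternatives were a replicate block, other fits, scalings, probe-set averaging, a level filter, a stricter threshold and leaving out each array.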

Additional observations from a re-analysis of the deposited data

Results flagged for a closer look

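Genotype differences at 6 h, with the knockout log2 change taken from the parent one, passed the test for these named genes. Values above 0 were 5.69 for ATF3, 4.26 for DDIT3, 2.98 for DDIT4, 2.84 for CHAC1, 2.79 for CCL20, 2.47 for TXNIP, 2.31 for CXCL8, 2.10 for KLF6, 2.09 for GADD45A, 1.91 for BIRC3, 1.65 for NFKBIA, 1.60 for ZFP36L1, 1.60 for DUSP1, 1.51 for H2AC12, 1.33 for CCN1, 1.16 for JUNB and 1.04 for H2BC14. Values below 0 were -1.69 for NLRP4, -1.62 for TNFRSF1B, -1.54 for ENPP5, -1.54 for UBE2V1, -1.52 for FAXC and -1.41 for MBNL2. On leaving out 1 of the 12 arrays in turn the call was lost in 9 cases for NLRP4, 6 for TNFRSF1B, 10 for ENPP5, 2 for UBE2V1 and 7 for FAXC, and in 0 for MBNL2 and for the genes above 0. The value of MBNL2 rests on its brightest probe set, which rose in knockout cells. Of its 13 probe sets 1 was above 0 there and 4 passed as fallen, and their average changed by -0.74. Outside the gene-level test, 1.21% of the 93635 probe sets with several symbols or none changed in knockout cells at 6 h.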

How the results depend on the processing

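The count of genes changed in knockout cells (1940) was 994 with housekeeping medians made equal, 3048 with all probe sets of a gene averaged, 794 at an adjusted p below 0.01, 410 with only the arrays compared, and 1168 to 1573 on leaving out single arrays, the lowest without treated replicate 1. The genotype difference (248 genes) passed for 506 in a fit of all 36 arrays, 398 with a variance trend, 422 with array weights, 89 with housekeeping medians, 500 with averaged probe sets, 85 at 0.01, 115 with only the arrays compared and 144 to 228 on leaving out single arrays; it was 146 without parent treated replicate 3 and 144 and 156 without knockout treated replicates 1 and 2. Changed probe sets (9327) numbered 2711 at 0.01. With averaged probe sets 4 genes reversed, MBNL2 at -0.74, ZFP36L1 at 0.14, NFKBIA at 0.32 and TCEA1 at 0.010, and 256 rather than 137 genes above 300 kb fell. A replicate block gave 1776 genes, 210 genotype differences and 7383 probe sets; deviations of same-numbered knockout arrays correlated at 0.03, 0.02 and -0.03, so the numbers are not taken as pairs. Of 127 named changed genes 88 were called with housekeeping medians, 42 with only the arrays compared and 95 to 106 on leaving out single knockout arrays. Housekeeping genes had a median of 11.50 in knockout control replicate 1 and 11.86 and 11.87 in the other two. With 3 arrays per group small changes could not be detected.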

Other observations

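Genes whose symbol begins with ZNF, which encode zinc finger proteins, were counted after 3 of them had appeared among the largest rises. Of 540 measured, 61 rose (11.3%) and 6 fell (1.11%) in knockout cells at 6 h, against 5.32% and 3.39% of all genes. The median change was 0.18 against 0.04 for all genes. In parent cells 90 rose and 7 fell, against 5.67% and 4.42% of all genes there, and the genotype difference passed for 2, against 1.11% of all genes. Of 1751 long non-coding RNA genes 46 rose (2.63%) and 15 fell (0.857%), and of 907 miRNA genes 7 rose (0.772%) and 6 fell (0.662%). These shares are below those of all genes. Median levels in knockout controls were 4.70 and 2.86, against 7.15 for all genes, and dim genes seldom pass.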
